A study of Mus musculus with 12 samples.

Results

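A group of 8 genes of Schwann cells and myelin was followed through RNA-sequencing libraries of sorted satellite cells, the resident stem cells of skeletal muscle. They were Sox10, Mbp, Prx, Pmp22, S100b, Cdh19, Ngfr and Gfra3, taken by symbol, and made up 8 of the 25093 genes in the count table. The genes had been picked with their values in these libraries known, so their levels and fold changes are given as a description, without p-values. Counts of members called, in the closing section, are a description too.

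The study sequenced 12 samples in 4 groups of 3, from mice 3 to 4 months old. Both genotypes carried Pax7-CreERT2/+, a tamoxifen-inducible Cre recombinase driven by Pax7, and the R26R-YFP reporter, and both received tamoxifen. The control animals were Gli3+/+, and the others were Gli3fl/fl (Gli3Δ/Δ after recombination), which lose the transcription factor GLI3 in Pax7-expressing satellite cells and, by this design, not in glia. Quiescent satellite cells (QSCs) came from all hindlimb muscles of uninjured mice, several mice per library, and were sorted as positive for α7-INTEGRIN and CD34 and negative for SCA1, CD45, CD31 and CD11b. Activated satellite cells (ASCs) were collected 3 days after cardiotoxin injury, 1 mouse per sample, with VCAM1 in place of CD34, and their libraries were not analysed here. The sort used no marker specific to glia, and α7-INTEGRIN is made by Schwann cells too.

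Schwann cells are the glia of peripheral nerves, and muscle holds them along its motor and sensory axons and at the neuromuscular junction. Myelinating Schwann cells wrap single large axons in compacted membrane, while non-myelinating Schwann cells ensheath small axons or cap the nerve terminal. SOX10 is required at every stage of the lineage and acts with EGR2 on the genes of myelin proteins such as MBP, PMP22 and periaxin. Pmp22 and Ngfr are also used outside glia, Pmp22 in many epithelial and mesenchymal cells and Ngfr in neurons and several mesenchymal cells.

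The 6 QSC libraries held 39556784 to 65750131 estimated counts, and levels are given as CPM, counts scaled to a common library size after TMM normalization. Correlations of log2 levels between any pair of QSC libraries ranged from 0.959 to 0.985. Satellite cell markers were counted in every library, with Pax7, which defines the lineage, between 798 and 1160 CPM. Gli3 itself was counted at 11.2, 9.71 and 9.75 CPM in the Gli3+/+ libraries and at 9.54, 10.5 and 6.25 CPM in the Gli3Δ/Δ libraries, a log2 fold change of −0.22 ± 0.22 (SE, adjusted p = 0.916 from edgeR). A gene-level count also collects reads from outside the floxed exon, so it does not check the deletion.

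RefSeq promoters (GRCm38.p6, 250 bases before and 50 after each start) were matched by symbol. Those of some of the 8 genes had been left out beforehand, as given in the processing section. The sequences used were of 4 genes, S100b, Prx, Ngfr and Pmp22, the last with 4 annotated starts. They are shown because they were the genes with a promoter available here. Of the Pmp22 starts, 1 and 4 are printed. Whether promoter sequence goes with the levels given further on was not tested. Each sequence is read 5′ to 3′ on the strand of the gene, with CpG dinucleotides in capitals.
S100b, chr10:76253586-76253885, plus strand: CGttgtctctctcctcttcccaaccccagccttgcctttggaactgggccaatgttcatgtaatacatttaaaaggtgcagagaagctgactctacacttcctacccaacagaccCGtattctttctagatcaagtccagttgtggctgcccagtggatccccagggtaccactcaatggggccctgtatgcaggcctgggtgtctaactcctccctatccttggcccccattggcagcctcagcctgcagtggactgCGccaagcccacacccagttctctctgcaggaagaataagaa
Prx, chr7:27499074-27499373, plus strand: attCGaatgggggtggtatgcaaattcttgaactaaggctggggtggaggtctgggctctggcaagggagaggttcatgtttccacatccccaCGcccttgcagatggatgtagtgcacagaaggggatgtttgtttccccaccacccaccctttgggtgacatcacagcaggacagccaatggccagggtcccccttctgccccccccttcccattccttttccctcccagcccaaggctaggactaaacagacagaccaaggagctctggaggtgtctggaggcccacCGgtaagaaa
Pmp22 start 1, chr11:63128732-63129031, plus strand: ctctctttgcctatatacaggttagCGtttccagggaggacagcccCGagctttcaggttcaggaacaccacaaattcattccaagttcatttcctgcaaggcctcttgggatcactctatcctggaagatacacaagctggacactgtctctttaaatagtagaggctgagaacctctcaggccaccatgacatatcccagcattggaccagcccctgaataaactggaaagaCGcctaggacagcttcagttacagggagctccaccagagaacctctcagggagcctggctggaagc
Pmp22 start 4, chr11:63132553-63132852, plus strand: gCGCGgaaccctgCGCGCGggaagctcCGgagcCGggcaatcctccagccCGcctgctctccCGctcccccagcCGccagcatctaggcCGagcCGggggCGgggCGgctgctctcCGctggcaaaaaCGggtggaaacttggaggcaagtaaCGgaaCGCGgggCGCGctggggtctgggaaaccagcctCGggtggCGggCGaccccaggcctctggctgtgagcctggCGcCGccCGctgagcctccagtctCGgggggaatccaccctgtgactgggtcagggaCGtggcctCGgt
Ngfr, chr11:95587649-95587948, minus strand: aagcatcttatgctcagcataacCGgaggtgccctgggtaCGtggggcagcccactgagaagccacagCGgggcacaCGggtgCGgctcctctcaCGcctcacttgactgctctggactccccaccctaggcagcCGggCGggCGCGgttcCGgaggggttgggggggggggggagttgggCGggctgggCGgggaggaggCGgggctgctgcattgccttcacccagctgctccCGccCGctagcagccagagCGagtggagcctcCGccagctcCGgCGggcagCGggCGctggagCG
The S100b and Prx windows and Pmp22 start 1 held 3 CpG each, a number that 31.4% of the 32851 RefSeq promoters used here do not exceed. The Ngfr window held 23, and the 3 other Pmp22 starts held 18, 20 and 30, against a median of 7 over all promoters. Pmp22 has starts of both kinds, and gene-level counts do not tell them apart. On both strands, none of the 7 windows contained ACAAAG or ACAATG, core letters bound by SOX proteins and found in 28.6% of all promoters, nor GCGTGGGCG or GCGGGGGCG, letters bound by EGR proteins and found in 3.47%. The letters TATAAA, found in 13.6% of all promoters, were absent from the 7 windows as well. This says only that these letters are not in these stretches.

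All 8 genes were counted in every QSC library. 5 genes, Sox10, Mbp, Prx, S100b and Cdh19, were lower in each Gli3Δ/Δ library than in any Gli3+/+ library, with Gli3Δ/Δ means at 46.1 to 53.4% of the Gli3+/+ means. Pmp22, Ngfr and Gfra3 overlapped between the genotypes. Over all 25093 genes, 6.57% were lower in Gli3Δ/Δ libraries without overlap and 6.39% higher. Because the rule for the 8 genes used this contrast, nothing is read from their count.

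Sox10 encodes the transcription factor that defines the glial lineage. It was counted at 4.27, 2.89 and 4.43 CPM in Gli3+/+ QSCs and at 1.26, 1.82 and 2.26 CPM in Gli3Δ/Δ QSCs. The groups did not overlap, with the closest pair of libraries at 2.89 and 2.26 CPM. Means were 3.86 ± 0.848 and 1.78 ± 0.502 CPM (SD, n = 3 libraries each), a log2 fold change of −1.11 ± 0.30 (SE). These levels rested on 172 to 195 reads per Gli3+/+ library and 66 to 122 per Gli3Δ/Δ library. Sox10 (ENSMUSG00000033006.10) lies on the minus strand of chromosome 15, at chr15:79154908-79165240 in GRCm38.

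Mbp and Prx encode proteins of the myelin sheath. MBP holds the cytoplasmic faces of the compacted membrane together, and periaxin, the product of Prx, links the outer Schwann cell membrane to the basal lamina through a complex with DRP2 and dystroglycan. Mbp was at 29.4, 23 and 36.7 CPM in Gli3+/+ libraries and at 10.3, 19.5 and 17.3 CPM in Gli3Δ/Δ libraries. The lowest Gli3+/+ library and the highest Gli3Δ/Δ library were close, at 23 and 19.5 CPM, and the spread within each genotype was wide. The means were 29.7 ± 6.88 and 15.7 ± 4.8 CPM (SD, n = 3), and the log2 fold change was −0.91 ± 0.26 (SE). The Mbp locus on chromosome 18 also gives rise to Golli transcripts, which are made in cells other than glia, and gene-level counts do not separate them from the classic myelin transcripts.

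Prx was at 18.8, 18.4 and 23.1 CPM in Gli3+/+ QSCs, against 7.21, 11.5 and 12.8 CPM in Gli3Δ/Δ QSCs. The highest Gli3Δ/Δ library, at 12.8 CPM, was clear of the lowest Gli3+/+ library, at 18.4 CPM. Prx means were 20.1 ± 2.61 and 10.5 ± 2.91 CPM (SD, n = 3), with a log2 fold change of −0.94 ± 0.23 (SE). Prx (ENSMUSG00000053198.13) is at chr7:27499324-27520214 on the plus strand, where an annotated antisense gene, Gm15541, overlaps it, and whether the counting used the strand is not given in the sources used here.

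Pmp22, a membrane protein of compact myelin that is dosage-sensitive in peripheral nerve, overlapped between genotypes. It had the highest counts of the 8 genes, at 201, 177 and 135 CPM in Gli3+/+ libraries and at 137, 206 and 176 CPM in Gli3Δ/Δ libraries. The lowest library of each genotype was at 135 or 137 CPM and the highest at 201 or 206 CPM, and the means were close, at 171 ± 33.4 and 173 ± 34.7 CPM (SD, n = 3). Its log2 fold change was 0.01 ± 0.20 (SE). Pmp22 (ENSMUSG00000018217.12) is at chr11:63128982-63159547 on the plus strand.

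**Figure D1:**
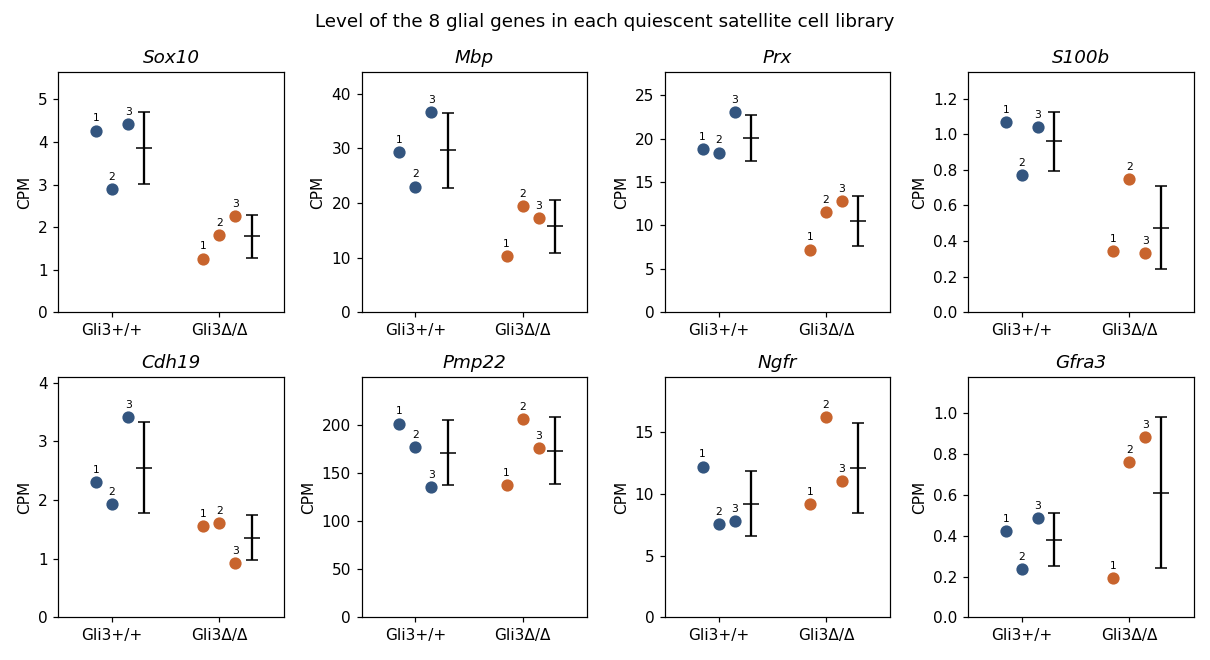
Level of each gene in CPM (vertical axis, from 0) in the Gli3+/+ (blue) and Gli3Δ/Δ (orange) QSC libraries, numbered 1 to 3 by replicate, with the mean and SD of each group of 3 in black. Sox10, Mbp, Prx, S100b and Cdh19 separate by genotype, while Pmp22, Ngfr and Gfra3 overlap.

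S100b, a calcium-binding protein used as a marker of Schwann cell bodies, was near the lower end of detection. It was at 1.07, 0.771 and 1.04 CPM in Gli3+/+ libraries and at 0.343, 0.746 and 0.334 CPM in Gli3Δ/Δ libraries. Gli3Δ/Δ replicate 2 nearly reached Gli3+/+ replicate 2, at 0.746 against 0.771 CPM, or 50 against 52 reads in libraries of similar depth. Means were 0.961 ± 0.165 and 0.475 ± 0.235 CPM (SD, n = 3), with a log2 fold change of −1.0 ± 0.44 (SE) that moved to −1.49 without Gli3Δ/Δ replicate 2. S100b (ENSMUSG00000033208.7) is at chr10:76253853-76261159 on the plus strand and is overlapped from the opposite strand by Dip2a.

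Cdh19, a cadherin of Schwann cell precursors and non-myelinating glia, was at 2.31, 1.93 and 3.41 CPM in Gli3+/+ QSCs and at 1.55, 1.61 and 0.924 CPM in Gli3Δ/Δ QSCs. The genotypes were close at 1.93 and 1.61 CPM, and both libraries numbered 3 lay at the outer ends. Means were 2.55 ± 0.771 and 1.36 ± 0.379 CPM (SD, n = 3). The log2 fold change of −0.90 ± 0.34 (SE) shrank to −0.42 when both libraries numbered 3 were left out, a choice made after the values were seen. Cdh19 (ENSMUSG00000047216.8) is at chr1:110888326-110977584 on the minus strand, where the unclassified transcripts Gm38255 and Gm36944 overlap it on the same strand.

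The receptor genes overlapped between genotypes. Ngfr encodes p75, the low-affinity neurotrophin receptor that is raised on Schwann cells without axon contact. It was at 12.2, 7.56 and 7.82 CPM in Gli3+/+ libraries and at 9.18, 16.2 and 11 CPM in Gli3Δ/Δ libraries, with 2 of the 3 Gli3Δ/Δ values inside the Gli3+/+ range. Means were 9.2 ± 2.62 and 12.1 ± 3.64 CPM (SD, n = 3), and the log2 fold change was 0.40 ± 0.27 (SE). Ngfr (ENSMUSG00000000120.6) is at chr11:95568818-95587735 on the minus strand.

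Gfra3, the co-receptor that binds artemin and signals with RET, had the lowest counts of the 8 genes in Gli3+/+ QSCs, at 0.422, 0.237 and 0.487 CPM. In Gli3Δ/Δ QSCs Gfra3 was at 0.191, 0.761 and 0.885 CPM, and its mean of 0.612 CPM was above that of S100b, 0.475 CPM. Gli3Δ/Δ replicate 1 was the lowest of all 6 libraries and the other two Gli3Δ/Δ libraries were the highest. Only 10 to 51 reads stood behind each value. Its log2 fold change of 0.69 ± 0.61 (SE) was about as large as its error and became 1.12 without Gli3Δ/Δ replicate 1.

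Corrected for the length of the annotated exons, levels within Gli3+/+ QSCs ran from Pmp22 at 72.6 ± 14.2 CPM per kb down to Gfra3 at 0.191 ± 0.0651 CPM per kb (SD, n = 3). Prx (3.6 ± 0.468 CPM per kb), Mbp (3.51 ± 0.812) and Ngfr (2.67 ± 0.76) followed Pmp22, and their ranges over the 3 libraries overlapped. Sox10 came next at 1.27 ± 0.278 CPM per kb, apart from Ngfr above it and from S100b below it. S100b (0.648 ± 0.111 CPM per kb) and Cdh19 (0.596 ± 0.18) overlapped, and Gfra3 lay below both. Pax7, on the same scale, was at 169 ± 15.8 CPM per kb. In Gli3Δ/Δ QSCs Ngfr, at 3.51 ± 1.06 CPM per kb, was above Prx at 1.88 ± 0.522 and Mbp at 1.85 ± 0.567, and its range did not overlap theirs. S100b, Cdh19 and Gfra3 lay together there, at 0.32 ± 0.158, 0.318 ± 0.0886 and 0.306 ± 0.185 CPM per kb (SD, n = 3).

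The 8 genes thus fell into a set of 5 and a set of 3 by their pattern over the 6 libraries. Summed over Sox10, Mbp, Prx, S100b and Cdh19, the level was 55.8, 47 and 68.8 CPM in Gli3+/+ libraries and 20.7, 35.2 and 33.6 CPM in Gli3Δ/Δ libraries. Within Gli3+/+ libraries all 5 were lowest in replicate 2. Within Gli3Δ/Δ libraries Sox10, Mbp and Prx were lowest in replicate 1, but S100b and Cdh19 in replicate 3. These minima did not set the 5 apart from the other 3 genes. Ngfr and Gfra3 were also lowest in Gli3+/+ replicate 2 (Pmp22 in replicate 3), and Pmp22, Ngfr and Gfra3 in Gli3Δ/Δ replicate 1. Over the 6 libraries, Pearson's r of log2(CPM + 0.5) was 0.67 to 0.97 for the 10 pairs within the 5, 0.44 to 0.73 for the 3 pairs among Pmp22, Ngfr and Gfra3, and −0.37 to 0.24 for the 15 pairs between the sets. Mbp and Prx were the closest pair (r = 0.97), followed by Sox10 and Prx (r = 0.96) and Mbp and Sox10 (r = 0.95). These values are a description over 6 libraries, which include the genotype difference that separated the sets, and genes sharing a library also share its depth and preparation.

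**Figure D2:**
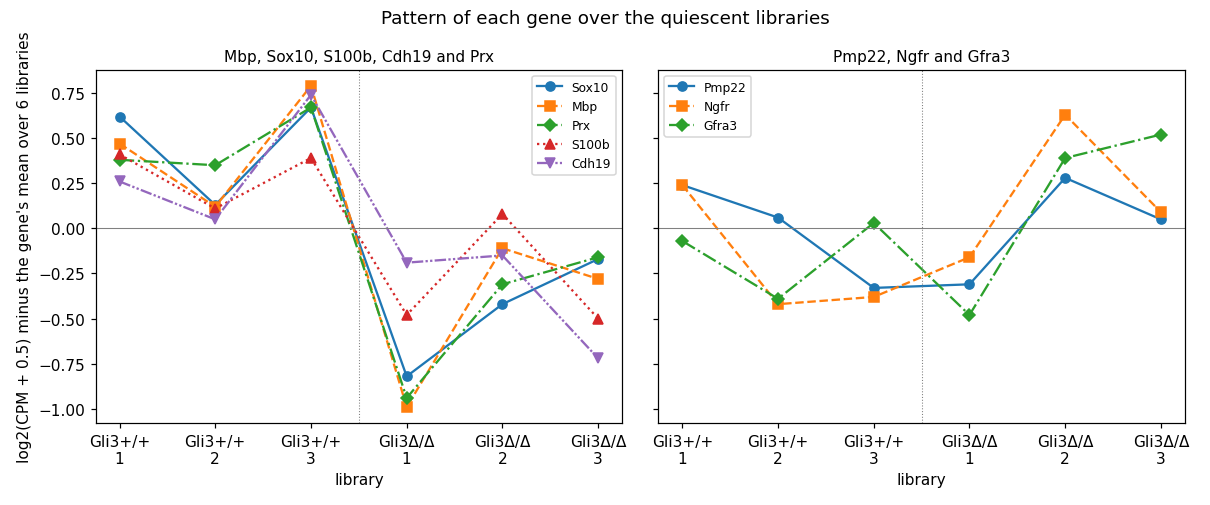
Each gene's log2(CPM + 0.5) minus its mean over the 6 QSC libraries (vertical axis) in every library (horizontal axis, Gli3+/+ left of the dotted line, Gli3Δ/Δ right); lines only join the points of 1 gene, since replicates have no order. The 5 genes on the left lie above 0 in all Gli3+/+ libraries and reach −0.99 (Mbp) in Gli3Δ/Δ replicate 1, while Ngfr peaks at 0.63 in Gli3Δ/Δ replicate 2.

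From lists of other Schwann cell genes set by role, 45 genes are reported here. The lists were drawn up with earlier results of these data known, so the counts below are a description and not independent evidence. With the edgeR quasi-likelihood test and Benjamini-Hochberg adjustment over all genes, 0 of the 45 passed an adjusted p of 0.05 with a fold of at least 1.2, beside 0.351% of all genes (41 lower, 0.163%, and 47 higher, 0.187%). Unadjusted p under 0.05 was met by 12 lower and 2 higher, beside 3.91% and 3.2% of all genes. The limma-voom fit called 0 of the 45, beside 0.291% of all genes. DESeq2 called 3 lower and 1 higher, beside 1.64% of the 23369 genes that it gave an adjusted p (0.822% lower and 0.822% higher). Their median log2 fold change was −0.44, against −0.03 for all genes.

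The 14 other genes of myelin membrane and junctions leaned lowest. In Gli3Δ/Δ QSCs 13 had a lower estimate and 1 a higher one, 9 were lower without overlap (beside 6.57% of all genes), and their median log2 fold change was −1.06. Cnp, an enzyme of non-compact myelin, was at 7.28, 5.77 and 9.42 CPM in Gli3+/+ libraries and 2.77, 3.82 and 4.6 CPM in Gli3Δ/Δ libraries. Gldn, whose product gathers sodium channels at the node of Ranvier, was at 1.44, 0.534 and 1.58 CPM against 0.172, 0.328 and 0.354 CPM. Both were called lower by DESeq2 (adjusted p = 0.0366 and 0.0383) and not by edgeR (adjusted p = 0.317 and 0.283), with log2 fold changes of −1.0 ± 0.27 and −2.04 ± 0.53 (SE). Cldn19, a claudin of the junctions within the sheath, was at 3.2, 2.09 and 3.6 CPM in Gli3+/+ libraries and at 0.248, 1.39 and 1.08 CPM in Gli3Δ/Δ libraries (edgeR adjusted p = 0.45). Mal, Gjc3, Pllp, Fa2h and Ugt8a, which serve myelin lipid and membrane assembly or glial gap junctions, did not pass either test. Their estimates were −0.95 ± 0.36, −0.89 ± 0.26, −1.25 ± 0.44, −1.33 ± 0.45 and −1.11 ± 0.41 (SE). Fa2h (means 0.685 and 0.271 CPM) and Ugt8a (0.89 and 0.411 CPM) were near the lower end of detection. Pllp rested on 13 to 58 reads per library.

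Pmp2 had the lowest estimate of the list, −3.33 ± 1.05 (SE), but on only 0 to 24 reads per library. Gjb1 (−1.48 ± 0.88) and Ncmap (−0.87 ± 0.54) were lower on average and overlapped between genotypes. Mag, Drp2 and Cadm4 had estimates nearer to 0. Mag, the adhesion protein that faces the axon, was at 2.02 ± 0.164 and 2.01 ± 0.676 CPM (SD, n = 3). Drp2, the partner of periaxin, was at 960 ± 41.7 and 989 ± 58.5 CPM (SD, n = 3), with overlapping groups, and it took up most of the summed level of this list. Per kb of exon it reached 112 ± 4.88 CPM in Gli3+/+ libraries, of the order of Pax7. Cadm4 was at 79.8 CPM in Gli3+/+ replicate 3 and at 18.4 and 26.3 CPM in the other Gli3+/+ libraries.

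Among 7 other transcription factors of the lineage, 5 had a lower and 2 a higher estimate in Gli3Δ/Δ QSCs, 0 were called by edgeR or DESeq2, 1 had an unadjusted p under 0.05, and the median log2 fold change was −0.38. That 1 gene was Pou3f1, the POU factor of promyelinating Schwann cells, at 2.51, 1.9 and 2.74 CPM in Gli3+/+ libraries and at 1.2, 1.61 and 0.964 CPM in Gli3Δ/Δ libraries. The groups did not overlap (log2 fold change −0.91 ± 0.31 SE, edgeR adjusted p = 0.506). Egr2, the partner of SOX10 at myelin genes, is also an early-response gene, and it ranged from 125 to 334 CPM over the 6 libraries with overlapping groups. Zeb2 was at 307 ± 20 and 314 ± 37 CPM (SD, n = 3). Pou3f2, Foxd3, Sox2 and Tfap2a were below 1 CPM in every library.

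The 14 other receptors and ligands had a median log2 fold change of −0.27, with 10 estimates lower and 4 higher and 0 called by edgeR. Dhh, the hedgehog ligand that Schwann cells make for the perineurium, was at 1.79, 1.69 and 1.86 CPM in Gli3+/+ libraries and at 0.572, 0.761 and 1.2 CPM in Gli3Δ/Δ libraries. These groups did not overlap (log2 fold change −1.07 ± 0.35 SE, edgeR adjusted p = 0.468, DESeq2 adjusted p = 0.209). Erbb3, the neuregulin receptor of Schwann cells, was at 4.94, 5.04 and 5.57 CPM against 4.37, 3.92 and 4.52 CPM, a smaller gap (log2 fold change −0.28 ± 0.20 SE, edgeR adjusted p = 0.88). Adam22, the receptor of LGI4 in axon sorting, was the gene of the list that DESeq2 called higher, at 16.9, 16.8 and 17.6 CPM in Gli3+/+ libraries and at 24.9, 30.8 and 27 CPM in Gli3Δ/Δ libraries (log2 fold change 0.69 ± 0.14 SE, DESeq2 adjusted p = 0.00174, edgeR adjusted p = 0.124).

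Ret and Gfra2, receptors of the GDNF family like Gfra3, were set apart by 1 library. Ret was at 388 CPM in Gli3+/+ replicate 3 and at 128 to 202 CPM in the other 5 libraries. Gfra2 was at 30.8 CPM in that library and at 2.46 to 5.23 CPM elsewhere. Gfra1 was steady, at 122 ± 17.7 and 113 ± 8.06 CPM (SD, n = 3), and Artn, the ligand of GFRA3, stayed below 1 CPM in every library.

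The 10 genes listed for non-myelinating and repair Schwann cells had 6 lower and 4 higher estimates and a median log2 fold change of −0.09, with 0 called by edgeR. Kcna1 is not particular to non-myelinating cells, since its potassium channel lies at the juxtaparanode of myelinated axons. It was called lower by DESeq2, at 3.6, 2.24 and 7.68 CPM in Gli3+/+ libraries and 1.51, 1.15 and 0.924 CPM in Gli3Δ/Δ libraries (log2 fold change −1.91 ± 0.45 SE, DESeq2 adjusted p = 0.0031, edgeR adjusted p = 0.22). Its value in Gli3+/+ replicate 3 was over 3 times that in replicate 2. Itgb8, an integrin subunit, was higher in each Gli3Δ/Δ library (14.2, 10.8 and 11.9 CPM against 7.9, 8.8 and 8.33 CPM, log2 fold change 0.56 ± 0.17 SE, edgeR adjusted p = 0.433). L1cam was at 3.95, 4.03 and 4.41 CPM against 3.4, 3.03 and 2.26 CPM (log2 fold change −0.51 ± 0.24 SE, edgeR adjusted p = 0.724). Scn7a, a sodium channel gene of non-myelinating Schwann cells, was at 23 ± 2.49 and 21.6 ± 2.71 CPM (SD, n = 3), and Gfap and Gap43 were below 1 CPM in every library.

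**Figure D3:**
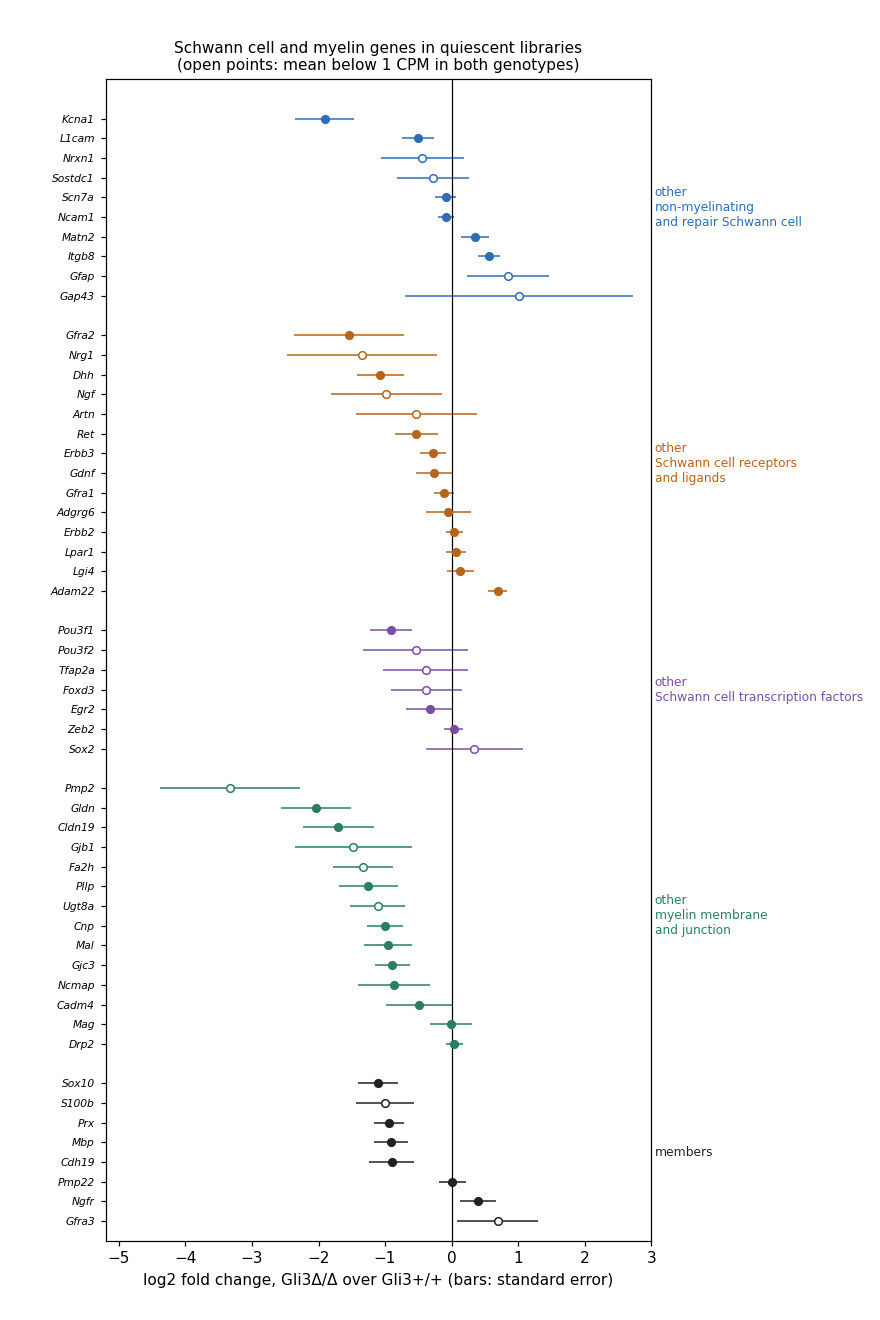
Log2 fold change of Gli3Δ/Δ over Gli3+/+ QSCs (horizontal axis, edgeR estimate, bars 1 SE) for the 8 genes and the 45 other Schwann cell genes, grouped by role. Filled points, for genes of at least 1 CPM in either genotype, run from −2.04 (Gldn) to 0.04 (Drp2) in the myelin list and lie on both sides of 0 in the other lists.

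**Figure D4:**
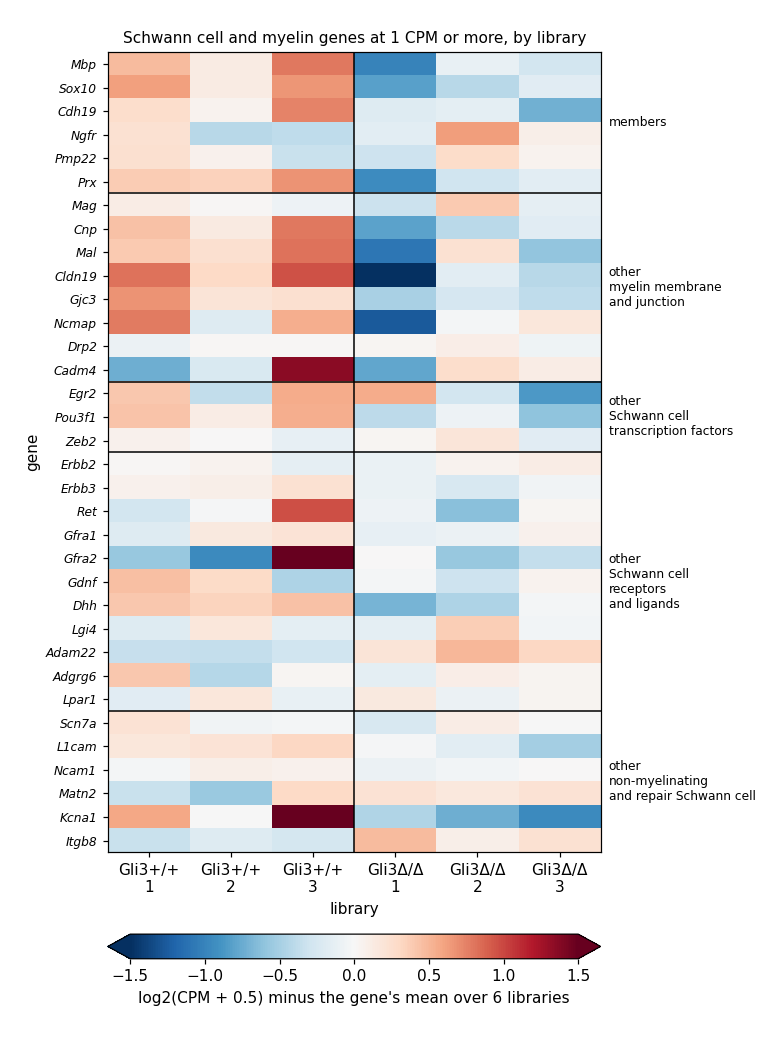
Log2(CPM + 0.5) of each gene minus its mean over the 6 QSC libraries (colour, red higher and blue lower, colour limits ±1.5) for the 6 members and 28 other Schwann cell genes with a mean of at least 1 CPM. Mbp, Prx, Cnp, Mal, Cldn19 and Gjc3 are red in the 3 Gli3+/+ columns and blue in Gli3Δ/Δ replicate 1, while Drp2, Zeb2, Erbb2 and Ncam1 are near white throughout.

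The Schwann cell markers Sox10, Mbp, Cdh19 and Erbb3 were thus detected in every QSC library. In bulk libraries, fewer cells of a type and less RNA of a gene per cell cannot be told apart. Markers of axons were low: of 8 genes, 6 were listed in the table (Nefl and Snap25 were not), their summed level was 1.41 to 2.67 CPM in Gli3+/+ and 1.49 to 2.15 CPM in Gli3Δ/Δ libraries, and Tubb3, Nefm and Nefh were each below 1 CPM throughout. The highest of the 6 on average, Stmn2, was at 1.19, 0.741 and 1.32 CPM in Gli3+/+ and at 0.935, 1.22 and 0.747 CPM in Gli3Δ/Δ libraries. It rested on 38 to 82 reads, with overlapping groups. Per kb of exon its mean was below that of S100b, at 0.195 against 0.648 CPM in Gli3+/+ and 0.173 against 0.32 CPM in Gli3Δ/Δ libraries. Macrophage markers differed in level, and the 5 genes summed to 11 to 23.3 CPM and 9.85 to 15.3 CPM. Adgre1, the F4/80 antigen, and C1qa were below 1 CPM in every library. Lyz2 was at 2.6 to 13 CPM over the libraries, with overlapping groups. Cd68 was lower without overlap, at 7.62, 9.09 and 6.98 CPM against 5.97, 6.04 and 6.94 CPM (edgeR adjusted p = 0.834). Per kb of exon, Lyz2 and Cd68 averaged 4.83 and 6.28 CPM in Gli3+/+ libraries, above Sox10 at 1.27 and Cdh19 at 0.596 CPM. In Gli3Δ/Δ libraries Lyz2 and Cd68 averaged 3.71 and 5.03 CPM per kb, against 0.583 for Sox10 and 0.318 for Cdh19.

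Some markers of other cell types were also lower on average in Gli3Δ/Δ QSCs. All 5 endothelial markers had lower estimates (median log2 fold change −0.55), but each of them overlapped between genotypes. Their summed level was 140 to 207 CPM in Gli3+/+ and 121 to 139 CPM in Gli3Δ/Δ libraries, barely apart. Most of it was Tek, at 108 ± 19.5 and 92.1 ± 9.48 CPM (SD, n = 3). Cdh5, the endothelial cadherin, was at 33.8, 13.8 and 23 CPM against 14.9, 19 and 14.1 CPM. Pecam1, the gene of CD31, which endothelial cells also make, was at 32 ± 8.64 and 32.2 ± 6.77 CPM (SD, n = 3). Of 5 mural cell markers 3 were lower and 2 higher, and their summed levels overlapped (1450 to 2290 CPM and 1640 to 2570 CPM). Rgs5, the defining pericyte gene, was at 43.2, 20.4 and 30.1 CPM against 11.1, 24.8 and 13.4 CPM, and Abcc9 was lower without overlap at 79.4, 89.6 and 69.4 CPM against 48.9, 50.6 and 58.3 CPM (edgeR adjusted p = 0.242, DESeq2 adjusted p = 0.0377). Cspg4 was higher without overlap at 14, 15 and 15.4 CPM against 15.9, 23.4 and 20.3 CPM (edgeR adjusted p = 0.666). Notch3 and Kcnj8 overlapped, with log2 fold changes of 0.17 and −0.19. Fibro-adipogenic markers had 3 higher and 2 lower estimates, with Pdgfra at 2.39 ± 1.22 and 1.91 ± 0.0832 CPM (SD, n = 3). Genes of the 4 surface proteins sorted against (Pecam1, Ptprc, Ly6a and Itgam) summed to 28.2 to 51.3 CPM and 33.3 to 45.6 CPM, 7 perineurial and endoneurial markers to 65.4 to 94.2 CPM and 60.3 to 94.2 CPM, and 4 of 5 melanocyte markers, those listed, to 6.36 to 6.9 CPM and 5.29 to 6.91 CPM. None of these genes was called by edgeR. The part of these cell types in the levels of the glial genes was not tested.

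The 10 satellite cell markers had a median log2 fold change of −0.05, with 7 estimates lower and 3 higher and 0 called. Cdh15 was higher without overlap, at 338, 233 and 345 CPM in Gli3+/+ against 379, 484 and 399 CPM in Gli3Δ/Δ libraries (edgeR adjusted p = 0.648). Gli3+/+ replicate 3 held the highest summed level, 8300 CPM against 6290 to 6480 CPM in the other 5 libraries, with Sdc4 alone at 2710 CPM there. That library was also the highest for Mbp, Sox10, Prx and Cdh19. Without it, the log2 fold changes were −0.73 for Mbp, −1.0 for Sox10, −0.83 for Prx, −0.94 for S100b and −0.63 for Cdh19, and its part in the result was not tested further.

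Genes elsewhere in the table were ranked by the likeness of their pattern over the 6 libraries to the mean of the 8 members. Among 14696 genes with a mean of at least 1 CPM, the 10 with the highest Pearson's r were Cep128 (r = 0.9942), Inf2, Rnf125, Lrrtm3, Cldn19, Zdhhc18, Dapk2, Mgll, Sptbn5 and Lysmd2 (r = 0.9679). Cldn19 was the 1 gene of the Schwann cell lists among them. An r of at least 0.9 was reached by 0.817% of the 14696 genes and, among the other Schwann cell genes, by 3 of the 28 at this level, all of them in the myelin list. It was also reached by Rgs5, the pericyte gene (r = 0.93), 1 of the 5 mural cell markers. Cep128, a centriolar gene, was at 63.74, 57.25 and 66.09 CPM in Gli3+/+ and at 43.68, 58.77 and 52.38 CPM in Gli3Δ/Δ libraries, a range much narrower in proportion than that of Mbp. Against the mean of the 5 lower genes, a choice made after their values were seen, 1.04% of genes reached 0.9, among them 4 of the 28. Cnp stood at r = 0.97 there and Drp2 at −0.25. Likeness over 6 libraries that differ by genotype is a description, and it says nothing on shared function or control.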

How the data were processed

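Polyadenylated RNA of sorted satellite cells was sequenced with a kit that keeps the strand. The authors mapped reads to GENCODE vM19 transcripts of GRCm38 with salmon, summed them to genes with tximport, and deposited estimated counts for 25093 genes without normalization, after removing genes with few reads. Whether salmon used the strand is not given in the sources used here. In the QSC columns 49.2% of values were not whole and were rounded. The 6 other library columns of the table match no sample label and were not used, so no ASC comparison was made. Deposited with it were 4 DESeq2 result tables, whose fold changes and p-values were not used. Each carries a signal per gene, the authors' mean of size-factor-scaled counts, used only in the closing section.

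CPM used TMM library sizes. The genotypes were compared with edgeR 4.0.16 (R 4.3.3; glmQLFit and glmQLFTest, group as the only term, Benjamini-Hochberg over all genes, adjusted p under 0.05 and fold at least 1.2), checked on simulated data. The fit was repeated with DESeq2 1.42.0 and with limma 3.58.1 (voom, sample weights). It was also repeated without a fold minimum, with a replicate block, with the size factors of DESeq2 in place of TMM, with libraries left out, and over genes kept by filterByExpr or by a minimum of 10 counts per library. Likeness was Pearson's r of log2(CPM + 0.5) over genes with a mean of at least 1 CPM. Positions and exon lengths came from GENCODE vM21, on the same build. Promoters of Mbp and Gfra3 were left out by chromosome before the matching, so they were not searched. The promoter set used held no match for Sox10 or Cdh19. The text names all members, genes of the lists by role and cell type, and the 10 likest genes. Some genes of the Schwann cell lists are not reported here and are left out of the counts. The members and lists were chosen with earlier results of these data known.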

Additional observations from a re-analysis of the deposited data

Results flagged for a closer look

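The authors' deposited mean signal per gene, which is identical in their 4 comparison tables and covers more libraries than the 6 used here, was set beside the QSC libraries after dividing it by the median ratio of 0.89 over 19401 genes. For 4 of the 8 genes this authors' mean lay above every QSC library. The share of all genes for which this holds was not computed, so nothing is read from that count. Cdh19 was at 766 normalized counts in the authors' mean (scaled) against a QSC mean of 102, a ratio of 7.53, and 2.64% of genes had a ratio at least as high. The ratio was 4.18 for Sox10 (615 against 147, highest QSC library 230) and 3.64 for S100b (136 against 37.4, highest 55.9). For Ngfr it was 1.82 (1010 against 556, highest 842). Ratios at least as high were reached by 4.78% of genes for Sox10, 5.5% for S100b and 15.5% for Ngfr. For Mbp, Prx and Gfra3 the ratios were 1.56, 1.49 and 1.51, within the range of the QSC libraries, and for Pmp22 it was 0.81. Beside them, the Schwann cell gene Erbb3 had a ratio of 4.94 and Pax7 had 0.57. A mean has no spread, and which libraries outside the QSCs carry these reads was not tested.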

How the results depend on the processing

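The estimates of Mbp, Sox10, Prx, S100b and Cdh19 were negative and those of Ngfr and Gfra3 positive in each of 13 alternatives, while Pmp22 took either sign, between −0.14 and 0.16. For the genes that were lower without overlap, leaving out libraries could not change the sign. The other alternatives refit the same libraries, so the shared sign adds no independent evidence. The ranges were −1.10 to −0.69 for Mbp, −1.32 to −0.92 for Sox10, −1.11 to −0.73 for Prx, −1.49 to −0.74 for S100b and −1.06 to −0.42 for Cdh19. DESeq2 called 384 genes in place of 88, 2 of the 8 members in place of 0 (a description, since the choice of members used this contrast) and 4 other Schwann cell genes in place of 0. Requiring at least 10 counts in every library, which tests fewer genes, left 48 calls, and leaving out both libraries numbered 3 left 52 (chosen after seeing the data). Leaving out 1 library gave 58 to 103 calls (58 without Gli3Δ/Δ replicate 3), 0 members and 0 other Schwann cell genes. The cause of these shifts was not tested.

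With the replicate number as a block (replicate block), 79 genes and 0 members were called. Same-numbered libraries did not deviate together (r = −0.25, −0.03 and −0.06), so the numbers were not taken to pair the samples.

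The list of the 10 likest genes depended on its settings: 5 were shared with a mean of at least 5 CPM, 0 with Spearman's correlation, 0 with the mean of the 5 lower genes, and 1 to 5 when 1 library was left out. Depth limited S100b and Gfra3 most, with at most 52 reads per library for either gene.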
